A study of Mus musculus with 24 samples.

Results

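The comparison set sorted EMB- cells of vertebrae against sorted EMB- cells of long bones in mice of postnatal day 10, with 8 of the 24 libraries of the series. The 4 vertebral libraries came from spine and held GFP+ cells, which the series' design text gives as zic1-cre positive. The 4 long bone libraries came from femur and tibia and held GFP- cells, given as zic1-cre negative. All mice were male and labelled WT, although sorting on GFP requires a Cre and a reporter allele, which the labels do not describe. Cells of both groups were sorted to carry CD200 and to lack CD31 (endothelium), TER119 (red cells), CD45 (leukocytes), Thy, 6C3 and CD105, and then to lack embigin (EMB), a membrane glycoprotein. Site and GFP state cannot be told apart in this comparison, so the vertebral GFP- EMB- libraries (n = 4) are given beside the results. Each library is labelled a biological replicate; whether it pooled several mice is not given in the sources used here. Of 21948 protein-coding genes, 10890 reached an FPKM (a fragment count divided by transcript length and by the library's mapped fragments) of 1 in 4 or more of these 8 libraries and were tested.

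Vertebrae form from the somites, whose sclerotome turns on Pax1 and Pax9 and builds the vertebral bodies, arches and discs. Femur and tibia form from lateral plate mesoderm of the hindlimb bud under Pitx1 and Tbx4. The HOX genes, which lie in 4 clusters, record position along the body axis and, in their posterior members, along the limb. The surface phenotype used here is one that enriches skeletal stem and progenitor cells, which give rise to cartilage, bone and marrow stroma. Zic1 is a transcription factor of dorsal somite derivatives. The study asked how such cells of the spine differ from those of long bones.

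The genes of the sorted proteins were read first. Emb lay at 0.238 to 0.543 FPKM in vertebral and 0.685 to 1.06 in long bone libraries, while the EMB+ groups averaged 49.995 ± 4.41 and 34.7 ± 4.58 (SD, n = 4). Ptprc, Pecam1 and Thy1, for CD45, CD31 and Thy, stayed under 1 FPKM in all 8 libraries. Enpep, which encodes 6C3, lay at 0.271 to 0.457 FPKM in vertebral and 0.863 to 1.76 in long bone libraries. Eng, for CD105, lay at 1.54 to 2.24 against 0.603 to 1.95 FPKM and did not pass the test (adjusted p = 0.32). Cd200 had 123, 134, 127 and 144 FPKM in the vertebral and 239, 190.69, 199.6 and 563 in the long bone libraries. On the log2(FPKM + 1) scale it was lower in vertebral cells, with a difference of -1.01 (SE 0.30, adjusted p = 0.023), but the call was lost without vertebral replicate 1, 2 or 3 (adjusted p = 0.065, 0.056 and 0.060) and with median-ratio scaling (adjusted p = 0.077). Zic1 had 0.349, 0.841, 1.39 and 0.729 FPKM in the GFP+ libraries, and its neighbour Zic4 1.4991, 0.797, 1.47 and 1.12; every long bone library listed both at 0, and they averaged 0.0212 ± 0.0305 and 0.0741 ± 0.148 in vertebral GFP- EMB- cells.

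Long bone replicate 4 stood apart. Its correlation with the other 3 long bone libraries over the genes tested was 0.918 to 0.940, against 0.967 to 0.981 among those 3 and 0.981 to 0.987 among the vertebral libraries. Genes with short transcripts were high in it and genes with long transcripts low: its median deviation from the other 3 was 0.55 in the shortest of 4 equal groups of genes by longest annotated transcript, then -0.01, -0.31 and -0.43 in the following groups. Hemoglobin genes held 4.62% to 8.87% of the summed FPKM in long bone and 0.0662% to 0.249% in vertebral libraries, although cells carrying TER119 were gated out. The read number behind an FPKM is unknown, so no counting intervals are given.

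**Figure D1:**
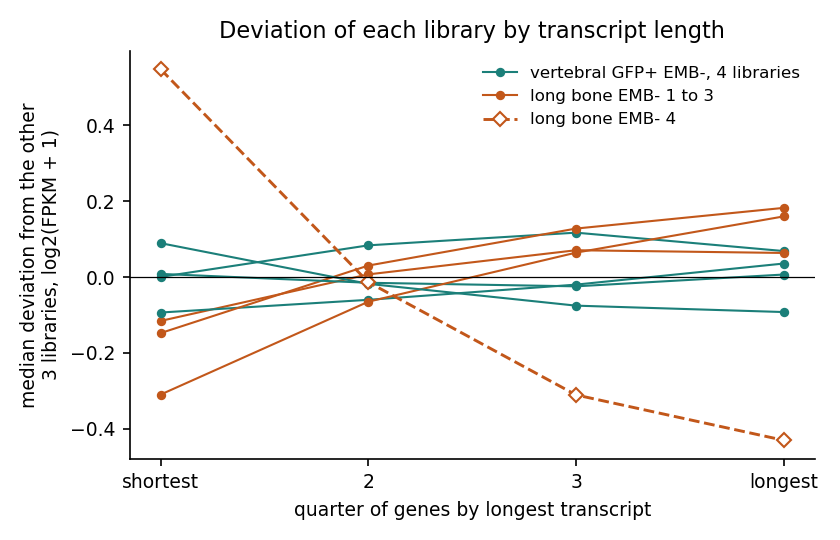
Median deviation of each of the 8 libraries from the other 3 of its group, on the log2(FPKM + 1) scale (vertical axis), in 4 equal groups of genes by the length of the longest annotated transcript (horizontal axis). Long bone replicate 4 runs from 0.55 in the shortest group to -0.43 in the longest, while the other 7 libraries stay between -0.31 and 0.18.

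Far more genes were lower than higher in vertebral GFP+ cells. Of 10890 genes tested, 3814 (35.0%) passed a Benjamini-Hochberg adjusted p of 0.05 in limma: 555 (5.10%) were higher and 3259 (29.9%) lower in the vertebral libraries. A difference of 2-fold or more on this scale was seen in 219 of the higher and 1482 of the lower genes. The median gene lay 0.27 lower on the log2 scale. Median-ratio scaling moved that median to -0.01 and the calls to 2888 (26.5%), with 1081 (9.93%) higher and 1807 (16.6%) lower. With quantile normalization the larger side flipped, with 1914 (17.6%) higher and 1620 (14.9%) lower (median 0.12). All 555 genes called higher as deposited were also called higher after median-ratio scaling. Of the 3259 called lower, 1807 were again called lower. Without long bone replicate 4 the test called 5209 genes (47.8%), 835 (7.67%) higher and 4374 (40.2%) lower; 3779 of the calls were shared, 35 were lost and none changed direction. The 2 groups did not overlap in 4077 genes (37.4%), of which 3452 (31.7% of those tested) were also called. Of the genes tested, 51 had no long bone library and 379 no vertebral library at 1 FPKM or more; these passed the filter through the group where they were high.

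**Figure D2:**
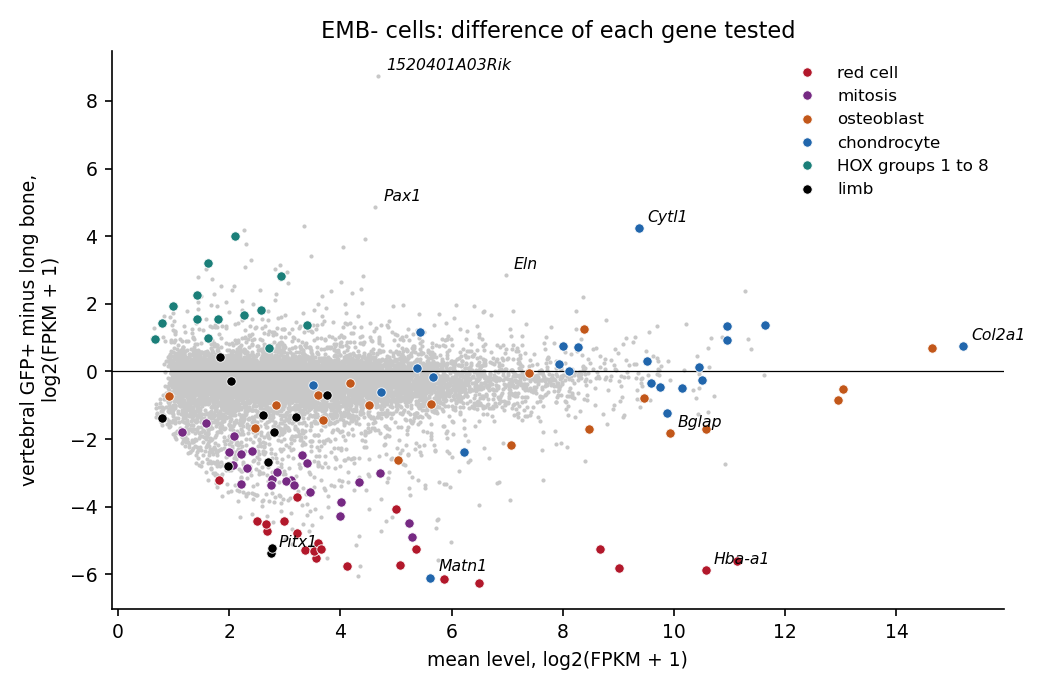
Difference between vertebral GFP+ and long bone EMB- cells on the log2(FPKM + 1) scale (vertical axis) against the mean level (horizontal axis) for the 10890 genes tested, with the members of 6 gene lists in colour. Red cell and mitosis genes lie below 0, HOX genes of groups 1 to 8 above it, and chondrocyte genes on both sides, from Matn1 at -6.10 to Cytl1 at 4.24.

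Genes of the sclerotome were higher in vertebral cells, with Pax1 the most changed of them. Pax1 (chromosome 2, 147361925 to 147393295, GRCm38), the paired-box factor of the ventral sclerotome, had 145, 123, 126 and 128 FPKM in the vertebral libraries and 2.32, 3.38, 5.36 and 3.59 in the long bone libraries. The groups were far apart, and the difference was 4.85 (SE 0.19, adjusted p = 6.2e-08). Foxf2 (chromosome 13, 31625816 to 31631403), a forkhead factor, had 20.5, 21.5, 16.2 and 20.6 against 0.342, 0.140, 0.0233 and 0.0253 FPKM, a difference of 4.19 (SE 0.17, adjusted p = 6.1e-08). Pax9, the close relative of Pax1, had 5.85, 6.11, 6.52 and 6.93 against 0.358, 0.569, 0.640 and 0.428 FPKM, a difference of 2.30. Nkx3-2, a transcriptional repressor that promotes cartilage formation downstream of Pax1 and Pax9, was detected in both groups, with 20.9, 22.0, 21.0 and 19.8 against 6.04, 6.00, 7.46 and 7.70 FPKM and a difference of 1.496. Of the 18 genes of the list, 16 are in the file and 11 were tested. Of these, 7 were higher and 1 was lower, beside 5.10% higher and 29.9% lower over all genes. The median of the list was 1.29, and 3 members had passed the filter only through the vertebral libraries. Foxd1, at 23.7, 25.1, 27.0 and 47.0 against 7.09, 1.68, 5.87 and 6.73 FPKM, and Meox1, at 3.37, 3.11, 2.87 and 3.56 against 1.47, 1.23, 1.23 and 1.66, were also higher. Uncx, a factor of the caudal sclerotome, had 1.58, 1.43, 1.57 and 1.20 FPKM; every long bone library listed it at 0. The lower gene was Tbx18 (-0.92), a factor of the rostral part of the somite that limb mesenchyme also uses. Meox2, Foxc1 and Nkx6-1 did not pass the test, with differences of -0.31, -0.16 and -0.24.

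HOX genes of groups 1 to 8 were higher in vertebral cells wherever they were tested. Hoxb7 (chromosome 11, 96286623 to 96290162) had 19.4, 12.5, 15.2 and 17.6 FPKM in the vertebral and 0.236, 0, 0 and 0.0468 in the long bone libraries, a difference of 3.99 (SE 0.17, adjusted p = 1.4e-07). Its neighbour Hoxb6 had 8.89, 7.35, 8.87 and 8.34 FPKM against 0.0560, 0, 0 and 0, and Hoxc8 had 18.9, 18.4, 20.3 and 18.8 against 2.1867, 1.4010, 1.26 and 2.78. In each case no long bone library came near the lowest vertebral one. Hoxb7 and Hoxb6 had passed the filter only through the vertebral libraries, which made overlap impossible, and 37.4% of all genes tested had groups without overlap. Of 23 genes of HOX groups 1 to 8, 14 were tested and all 14 were called higher (median 1.62), beside 5.10% higher over all genes. However, 7 of the 14 had passed the filter only through the vertebral libraries. Among the 7 others, Hoxc4 differed by 1.00 and Hoxd8 by 0.70, the smallest of the 14. The call of Hoxd8 was lost without vertebral replicate 1, 3 or 4 or long bone replicate 2 or 3 (adjusted p = 0.060 to 0.12), with no filter on low values (0.066) and after rescaling without hemoglobin genes (0.058). The annotated span of Hoxa3 (chromosome 6, 52169062 to 52213336) covers Hoxa4, Hoxa5 and Hoxa6, and that of Hoxc5 (chromosome 15, 102967443 to 103017429) covers Hoxc6, Hoxc8 and Hoxc9, so reads of these genes may not be told apart.

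In HOX groups 9 to 13 the direction differed between the clusters. Hoxa10 (chromosome 6, 52231197 to 52240854), a hindlimb and lumbosacral HOX gene, had 15.8, 11.1, 14.0 and 11.3 FPKM in vertebral and 44.8, 34.9, 49.8 and 51.8 in long bone libraries and was lower, with a difference of -1.72 (SE 0.17, adjusted p = 2.4e-05). Hoxa9 and Hoxa11, on either side of it, were lower, with differences of -1.55 and -1.70. Hoxa13, the gene of the distal limb, was below the filter, at 0 to 0.0818 FPKM against 0.610 to 1.88. In contrast, Hoxb9 was higher by 2.78, at 6.69, 4.42, 8.08 and 5.49 FPKM against 0.0209, 0, 0 and 0.0824. Hoxd9 (0.92) and Hoxd10 (0.94) were also higher, the former with a call that was lost without vertebral replicate 1, 3 or 4 or long bone replicate 1 or 2 (adjusted p = 0.057 to 0.072). Hoxc9 had 2.54, 2.5965, 2.95 and 3.59 against 3.15, 2.32, 2.68 and 4.92 FPKM and Hoxc10 5.80, 6.55, 7.22 and 7.46 against 9.67, 6.35, 10.4 and 16.5; neither passed the test (adjusted p = 0.75 and 0.10), although Hoxc10 was called lower without long bone replicate 2 (adjusted p = 0.020). In total 3 of the 8 genes tested were higher and 3 lower, beside 5.10% higher and 29.9% lower over all genes. Hoxb9 and Hoxd10, among the higher ones, had passed the filter only through the vertebral libraries.

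Limb identity genes were lower in vertebral cells, and some of them were nearly absent there. Pitx1 (chromosome 13, 55825051 to 55836192), which gives the hindlimb its identity, was listed at 0 in 3 of the 4 vertebral libraries and had 40.7, 27.7, 34.5 and 71.8 FPKM in the long bone libraries, a difference of -5.38 (SE 0.25, adjusted p = 2.0e-07). Shox2 (chromosome 3, 66971727 to 66981771), needed for the proximal limb skeleton, had 0, 0.245, 0.121 and 0.0797 FPKM against 38.4, 30.6, 38.2 and 57.5 and was lower, with a difference of -5.21 (SE 0.20, adjusted p = 6.1e-08). Tbx4, the T-box factor of the hindlimb, had 0.641, 0.294, 0.610 and 0.411 against 9.88, 7.38, 12.9 and 7.75 FPKM, and Tbx15, which also acts in limb skeletal growth, 2.06, 1.15, 2.21 and 0.843 against 15.7, 17.6, 20.3 and 8.73. No vertebral library reached the lowest long bone library for any of these. For Pitx1, Shox2 and Tbx4 the filter, passed only through the long bone libraries, fixed this in advance. Groups without overlap were seen in 37.4% of all genes tested. Tbx3, another T-box factor of the limb bud, was low in both groups, at 0, 0.0877, 0.149 and 0 against 1.91, 2.66, 1.27 and 1.38 FPKM (-1.38). Prrx1, a marker of limb and other mesenchyme, was less divided, at 4.4037, 5.78, 5.31 and 3.33 FPKM against 10.5, 10.4, 13.9 and 19.8 (-1.34). Of 21 genes listed, 11 were tested. Of these, 8 were lower and none higher (median -1.38), beside 29.9% lower and 5.10% higher over all genes. Pitx1, Shox2, Tbx4 and Tbx3 were the 4 that had passed only through the long bone libraries. Irx3 was at 2.45, 2.88, 3.70 and 3.35 against 2.16, 1.60, 1.75 and 2.78 FPKM and was called higher in vertebral cells without long bone replicate 4 (adjusted p = 0.019) and after median-ratio scaling (adjusted p = 0.017), but not as deposited (adjusted p = 0.089). Prrx2 and Msx1 did not pass the test (adjusted p = 0.063 and 0.27), Prrx2 being called lower without long bone replicate 2 (adjusted p = 0.024).

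**Figure D3:**
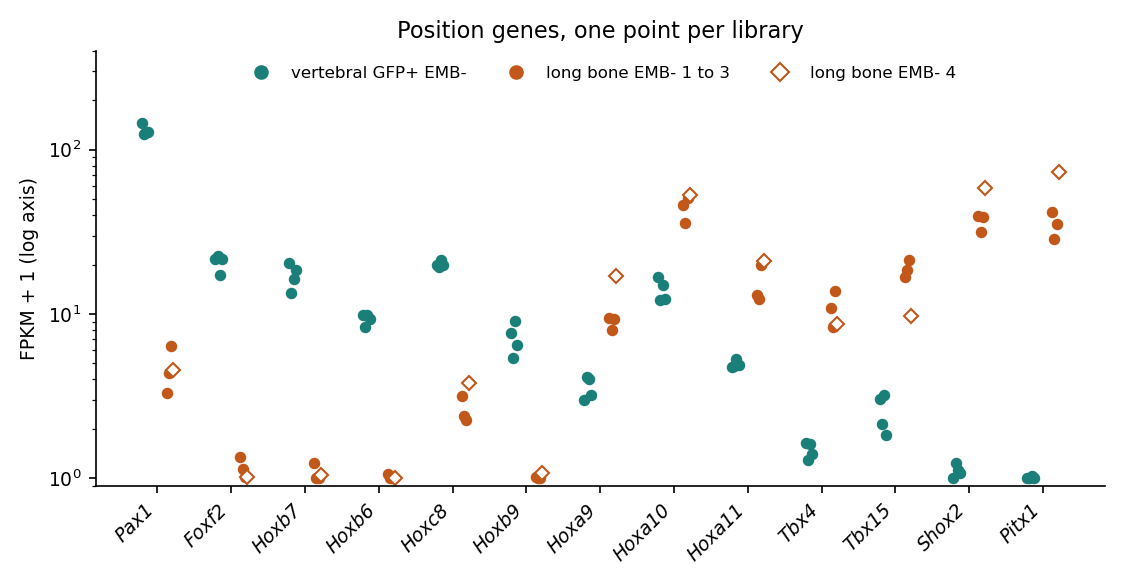
FPKM + 1 on a log axis (vertical) of 13 position genes (horizontal axis) in each of the 4 vertebral GFP+ and 4 long bone EMB- libraries, long bone replicate 4 as an open diamond. Pax1, Foxf2 and the HOX genes from Hoxb7 to Hoxb9 are high in the vertebral libraries, and the genes from Hoxa9 to Pitx1 in the long bone libraries.

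Cartilage genes went both ways, and the largest differences were in single matrix genes. Matn1 (chromosome 4, 130944385 to 130955475), which encodes matrilin 1, a cartilage matrix protein, had 3.93, 6.09, 4.32 and 5.38 FPKM in vertebral and 441, 327, 391 and 460.3 in long bone libraries. It was lower, with a difference of -6.10 (SE 0.17, adjusted p = 4.2e-09), the largest difference of any gene on the chondrocyte list. Matn4 was also lower, at 32.3, 27.0, 30.9 and 33.8 against 120.3, 139, 184 and 250.1 FPKM (-2.39). Cytl1 (chromosome 5, 37735519 to 37739820), a secreted cytokine-like protein of cartilage, had 2308, 3581, 2552 and 2441 FPKM against 118, 78.8, 132 and 318 and was higher by 4.24 (SE 0.36, adjusted p = 7.7e-06); without long bone replicate 4, its highest long bone library, the difference was 4.63. Chad (chondroadherin) was at 5562, 4736, 4902 and 5127 against 1625, 1693, 2390.1 and 2185 FPKM (1.38) and Lect1 (chondromodulin) at 3366, 2999, 3064 and 3113 against 1239, 945, 1390.4 and 1448 (1.34).

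The core genes of cartilage differed less. Sox9, the chondrocyte master regulator, had 346, 309, 322 and 347 FPKM against 191.63, 159, 275 and 172.21 and was higher by 0.76 (SE 0.19, adjusted p = 0.011). Col2a1, its main collagen target, had 47911, 51026, 48071 and 48585 against 27587, 25139.7, 33217 and 30807 FPKM and was higher by 0.75 (SE 0.19, adjusted p = 0.0098), a call lost with quantile normalization (difference 0.14, adjusted p = 0.56). Acan, the aggrecan gene, lay at 269.8, 252, 277 and 295 against 253, 214, 334 and 304 FPKM and did not pass the test (adjusted p = 0.99). Prg4, the lubricin gene of the joint surface, was lower, at 467, 539, 635 and 713 against 760.4, 1394, 1276 and 2512 FPKM (-1.22). Over the list, 7 of 23 genes tested were higher and 3 lower (median 0.11), beside 5.10% higher and 29.9% lower over all genes. Without long bone replicate 4 the counts of the list were 9 and 6. The genes called higher were Sox9, Col2a1, Comp, Lect1, Chad, Epyc and Cytl1, and those called lower were Matn1, Matn4 and Prg4.

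Hypertrophic cartilage genes included lower ones and 1 higher one. Col10a1, the collagen of hypertrophic chondrocytes, had 1.21, 3.81, 2.99 and 2.98 FPKM in vertebral and 26.7, 30.5, 22.5 and 14.8 in long bone libraries (-2.72), and Mmp13, a collagenase of late cartilage and bone, 36.3, 31.9, 27.1 and 29.6 against 146, 123, 90.6 and 56.2 (-1.62). Ihh, the hedgehog ligand of prehypertrophic cells, went the other way, at 8.22, 10.9, 12.7 and 6.19 against 2.48, 3.28, 5.81 and 4.07 FPKM (1.10, adjusted p = 0.0059). Of 10 genes tested, 5 were lower and 1 higher (median -0.52), beside 29.9% lower and 5.10% higher over all genes; 4 were lower with median-ratio scaling and 2 higher with quantile normalization.

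Several genes outside the lists were far higher in the vertebral libraries. The gene 1520401A03Rik (chromosome 17, 23704488 to 23722783) had 549, 413, 575 and 564 FPKM against 0.360, 0.395, 0.123 and 0.0564 and a difference of 8.74 (SE 0.16, adjusted p = 7.7e-11); it is named although the naming rule leaves out predicted genes, and was chosen after its values were seen. Padi2, a peptidylarginine deiminase, had 48.2, 39.6, 43.9 and 43.9 FPKM against 0.953, 1.76, 1.14 and 1.33 and was higher by 4.30 (SE 0.15, adjusted p = 3.7e-08). Chst5, a carbohydrate sulfotransferase, had 75.3, 76.7, 82.0 and 92.7 against 3.53, 3.39, 4.53 and 7.28 FPKM, and Nmur1, a neuromedin U receptor, 18.2, 14.8, 16.1 and 19.1 against 0.0412, 0.472, 0.354 and 0.480. For all of these the lowest vertebral library was above the highest long bone library. The naming rule required this of Padi2, Chst5 and Nmur1, and 37.4% of all genes tested had groups without overlap. 1520401A03Rik and Nmur1 had passed the filter only through the vertebral libraries. Sbsn (suprabasin, chromosome 7, 30751471 to 30756134) and Dmkn (dermokine, chromosome 7, 30763756 to 30781063), secreted proteins first known from epidermis, are neighbours on the chromosome. Sbsn was at 52.9, 62.1, 50.5 and 55.5 against 2.78, 2.6050, 1.89 and 8.08 FPKM and Dmkn at 15.988, 18.9, 12.8 and 10.8 against 0.141, 0.511, 0.0675 and 2.32, differences of 3.69 and 3.29. Long bone replicate 4 was the highest long bone library for both, and without it the differences were 4.04 and 3.65. Glis1, a Krüppel-like zinc finger factor, was higher by 3.14, and Msmp, a small secreted protein, by 3.42.

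Bone-forming cell genes were lower in vertebral cells. Bglap (chromosome 3, 88383501 to 88384464), which encodes osteocalcin, had 326, 487, 565 and 563 FPKM in the vertebral and 3228, 2427, 816 and 1251 in the long bone libraries and was lower, with a difference of -1.82 (SE 0.39, adjusted p = 0.0041). The long bone libraries themselves ranged widely, but the lowest of them was above the highest vertebral one. Bglap2 is a near-identical neighbouring copy (-1.70), so the split between the pair is uncertain. The osteocyte genes Dmp1, at 53.9, 74.0, 60.9 and 50.4 against 427, 386, 219 and 150.2 FPKM, and Mepe, at 21.3, 10.9, 8.80 and 8.50 against 126, 69.4, 62.6 and 62.1, were lower, with differences of -2.18 and -2.63. Spp1 (osteopontin) had 777, 953, 828 and 771 against 3864, 2817, 2142 and 2379 FPKM, and Ibsp, bone sialoprotein, 555, 544, 505 and 525 against 869, 889, 1023 and 895. The regulators Dlx3 and Dlx5 were lower, with differences of -1.66 and -1.01. In these bulk samples, fewer cells of a type and less RNA per cell cannot be told apart.

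Of 19 osteoblast genes tested, 14 were lower and 1 higher, beside 29.9% lower and 5.10% higher over all genes. Their median was -0.97 against -0.27 over all genes. Without long bone replicate 4, 16 were lower and 2 higher. The count of lower genes rested on the scaling and on single libraries: it was 8 with median-ratio scaling, 9 with quantile normalization and 9 without vertebral replicate 1. Col1a1, the main collagen of bone, was at 5769.7, 5623, 6055 and 5791 against 13187, 12227, 10093 and 7446 FPKM (-0.85, SE 0.22, adjusted p = 0.010), a call lost with median-ratio scaling (adjusted p = 0.0998), and its difference was 0.05 with quantile normalization (adjusted p = 0.84). The gene called higher was Omd (osteomodulin), a small proteoglycan, at 512, 468, 496 and 548 FPKM against 180.0, 205, 331 and 158 (1.26). Sparc (osteonectin) had 30634, 30039, 32287 and 33794 against 17286, 14947, 17371 and 33412 FPKM. It did not pass the test with all libraries (adjusted p = 0.062) but was higher by 0.94 without long bone replicate 4 (adjusted p = 7.2e-05).

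The stretch before the Bglap start site is shown because RUNX2, the osteoblast factor, acts on this gene. It is the 250 bases upstream of the RefSeq start (GRCm38.p6, chr3:88384467-88384716, minus strand), with ACCACA, a core RUNX motif searched on both strands and chosen after the sequence was read, in capitals. The motif occurs once here, and 14.0% of the 32851 promoter windows of the RefSeq table hold it.
Bglap: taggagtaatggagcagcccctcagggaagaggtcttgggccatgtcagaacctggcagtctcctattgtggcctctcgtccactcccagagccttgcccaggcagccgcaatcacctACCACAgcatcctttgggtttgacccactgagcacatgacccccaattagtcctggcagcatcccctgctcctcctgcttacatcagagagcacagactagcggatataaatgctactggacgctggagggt

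Genes of the marrow stroma, the cells that line the marrow space and support blood formation, were lower in vertebral cells. Cxcl12 (chromosome 6, 117168535 to 117181367), the chemokine that holds blood stem cells in the marrow, had 29.9, 24.5, 23.4 and 25.4 FPKM against 174.84, 169.9, 132 and 137 and was lower, with a difference of -2.52 (SE 0.16, adjusted p = 8.2e-07). Vcam1, an adhesion molecule of the same cells, had 2.81, 2.25, 1.48 and 1.93 against 28.1, 23.3, 14.5 and 20.9 FPKM. The adipocyte-lineage genes Lpl (lipoprotein lipase) and Adipoq (adiponectin) had 4.10, 3.8954, 2.6046 and 5.21 and 1.77, 0.960, 1.33 and 1.33 FPKM in vertebral and 28.4, 33.7, 16.7 and 29.9 and 17.1, 15.3, 8.21 and 27.3 in long bone libraries. The groups did not overlap for any of these 4 genes, as in 37.4% of all genes tested. Vcam1, Lpl and Adipoq were lower, with differences of -2.85, -2.49 and -2.83. Of 13 genes tested, 8 were lower and 1 higher (median -1.19), beside 29.9% lower and 5.10% higher over all genes. Of these 13, 2 had passed only through long bone. The gene called higher was Grem1, a BMP antagonist that also marks skeletal progenitors.

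Secreted signals and their antagonists went both ways. Among Wnt antagonists, Sfrp2 was lower, at 4.47, 2.08, 5.96 and 3.62 against 46.5, 37.3, 57.4 and 59.1 FPKM (-3.38, SE 0.25, adjusted p = 2.7e-06), as was Sfrp5, at 105, 100.5, 109 and 123 against 523, 361, 514 and 587 (-2.15). Wif1, a Wnt inhibitor of cartilage, was higher, at 1357, 1319.8, 1219.9 and 1344 against 454, 416, 695 and 523 FPKM (1.35, SE 0.20, adjusted p = 0.00032). In all, 6 of the 11 Wnt antagonists tested were lower and 2 higher (median -0.71), beside 29.9% lower and 5.10% higher over all genes. Of 5 Wnt ligands tested 4 were lower, but 1 with median-ratio scaling and 0 with quantile normalization, and 2 without vertebral replicate 1 or 4 or long bone replicate 1.

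BMP antagonists and ligands were also divided. Chrdl2 (chordin-like 2) had 38.5, 32.3, 46.1 and 41.2 FPKM against 4.72, 5.59, 6.14 and 5.11 and was higher by 2.66 (SE 0.15, adjusted p = 4.9e-07), and Grem1 (gremlin 1) had 28.6, 31.6, 33.9 and 33.5 against 4.32, 5.75, 8.47 and 12.1 (2.01). The ligand Bmp7 had 1.56, 2.17, 2.17 and 1.91 FPKM against 13.7, 11.979, 15.6 and 7.18 (-2.11) and Bmp4 3.99, 5.77, 5.11 and 3.65 against 13.2, 15.2, 12.7 and 19.4 (-1.52). Bmp6 was the exception among ligands, at 56.2, 54.7, 60.6 and 55.9 FPKM against 26.7, 23.2, 31.3 and 22.6 (1.11). Of 12 BMP and GDF ligands tested, 6 were lower and 1 higher, beside 29.9% lower and 5.10% higher over all genes. Of 15 BMP antagonists and target genes, 7 were higher and 2 lower. In this second list 4 were higher without vertebral replicate 1 and 4 lower without long bone replicate 4. Gas1, a hedgehog co-receptor, was higher, at 1017, 1308, 1091 and 1082 FPKM against 428, 459.6, 567 and 560.2 (1.16). Among 10 insulin-like growth factor genes tested, 6 were lower and none higher (median -0.94), 4 of them still lower with median-ratio scaling. Igfbp5, a binding protein of bone, had 16.3, 11.8, 15.3 and 13.5 against 53.6, 109, 91.4 and 57.3 FPKM (-2.32), Igf1 9.20, 7.09, 9.61 and 6.98 against 28.4, 33.5, 38.8 and 28.5 (-1.85) and Igf2 325, 304, 386 and 332 against 581, 604, 975 and 1379 (-1.30).

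Connective tissue genes were divided. Eln (chromosome 5, 134702593 to 134747323), which encodes elastin, had 376, 323, 332 and 298 FPKM in vertebral and 39.3, 63.2, 38.6 and 44.6 in long bone libraries and was higher by 2.84 (SE 0.19, adjusted p = 1.2e-06). Mkx, a tendon and ligament factor, had 25.0, 27.9, 23.6 and 23.4 against 8.0026, 7.11, 11.9 and 11.3 FPKM (1.32), Fmod (fibromodulin) 3920.1, 3456, 3408 and 3557 against 1993, 1591, 2348 and 1524 (0.96) and Ogn (osteoglycin) 288, 204, 261 and 251 against 79.1, 77.7, 94.3 and 44.6 (1.79). All of these were higher in vertebral cells. Kera (keratocan) and Thbs4, a thrombospondin of tendon, were lower, at 5.16, 2.68, 4.37 and 3.47 against 19.2, 24.7, 20.4 and 17.9 FPKM and 38.8, 43.8, 50.1 and 43.2 against 136, 109, 129.6 and 114 (-2.15 and -1.45). Tnmd, the marker of mature tendon cells, had 143, 137, 195 and 176.20 against 146, 120.5, 172.78 and 279 FPKM, with overlapping groups and an adjusted p of 0.83. Over the tendon and ligament list, 4 of 13 tested were higher and 3 lower, or 6 and 5 without long bone replicate 4. Over fibroblast and periosteum genes, 5 of 17 were higher and 6 lower. Without vertebral replicate 2 or 3 or long bone replicate 1, only 3 of these 17 were higher. Over elastic fibre genes, 2 of 16 tested were higher and 4 lower, or 4 and 5 without long bone replicate 4. With median-ratio scaling the elastic fibre counts were 4 and 2. Beside these lists stand 5.10% higher and 29.9% lower over all genes tested.

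Red cell genes were lower in vertebral cells, in every member tested. Hba-a1 (chromosome 11, 32283511 to 32284465), an alpha globin, had 85.4, 296, 190.88 and 231 FPKM in the vertebral and 10359.8, 13728, 6565 and 15071 in the long bone libraries, a difference of -5.89 (SE 0.38, adjusted p = 1.2e-06). Hba-a2 nearly repeats its sequence, as Hbb-bt does that of Hbb-bs, so the split within each pair is uncertain. Slc4a1 (band 3 of the red cell membrane) had 2.28, 9.06, 6.39 and 4.22 against 539, 972, 419 and 144 FPKM, Alas2, the first enzyme of erythroid heme synthesis, 2.87, 9.09, 6.73 and 8.58 against 362, 607, 262 and 257, and Klf1, the erythroid transcription factor, 1.28, 1.24, 1.71 and 0.906 against 135, 216, 82.4 and 86.7. Every long bone library was far above every vertebral one for these genes. Hba-a1, Slc4a1, Alas2 and Klf1 met the naming rule for the largest differences, which required groups without overlap. Such groups were seen in 37.4% of all genes tested. Car2, carbonic anhydrase 2 of red cells and osteoclasts, was lower, with a difference of -6.27 (SE 0.30, adjusted p = 2.0e-07), and Ctse, Tspan33 and Cldn13, all known from red cell precursors, had differences of -6.05, -5.76 and -5.53. Of 24 red cell genes, 22 were tested and 22 lower (median -5.26), beside 29.9% lower over all genes. Of the 22, 8 had passed the filter only through the long bone libraries. The red cell genes summed to 286 to 1004 FPKM in vertebral and 21244 to 44906 in long bone libraries, a difference present in all 4 long bone libraries. Of 14 heme synthesis genes tested 13 were lower.

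The upstream sequences of 3 of these genes are shown because each was lower in all 4 vertebral than in all 4 long bone libraries. Each is the 250 bases before the RefSeq start (GRCm38.p6): Hba-a1 at chr11:32283422-32283671 (plus strand), Hbb-bt at chr7:103813924-103814173 (minus strand) and Alas2 at chrX:150547167-150547416 (plus strand). Capitals mark GATAA, a core of GATA1 sites, and CACCC, the box to which KLF1 binds, on both strands (TTATC and GGGTG in reverse); the letters were chosen after the sequences were read. GATAA occurs once in each of the 3. CACCC occurs at 2 positions in Hba-a1 and 3 each in Hbb-bt and in Alas2, with no base between the 3 in Alas2. Of the 32851 windows of this length in the table, 22.6% hold GATAA and 52.0% hold CACCC, so a match is a description only.
Hba-a1: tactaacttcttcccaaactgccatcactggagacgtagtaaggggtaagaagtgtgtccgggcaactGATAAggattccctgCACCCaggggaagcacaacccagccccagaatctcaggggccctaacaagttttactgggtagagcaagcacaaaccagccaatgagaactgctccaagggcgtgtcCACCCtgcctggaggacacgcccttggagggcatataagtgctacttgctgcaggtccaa
Hbb-bt: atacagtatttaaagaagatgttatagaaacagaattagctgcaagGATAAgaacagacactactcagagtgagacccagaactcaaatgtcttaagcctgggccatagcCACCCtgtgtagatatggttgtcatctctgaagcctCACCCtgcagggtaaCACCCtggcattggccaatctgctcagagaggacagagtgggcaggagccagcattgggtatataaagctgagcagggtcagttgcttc
Alas2: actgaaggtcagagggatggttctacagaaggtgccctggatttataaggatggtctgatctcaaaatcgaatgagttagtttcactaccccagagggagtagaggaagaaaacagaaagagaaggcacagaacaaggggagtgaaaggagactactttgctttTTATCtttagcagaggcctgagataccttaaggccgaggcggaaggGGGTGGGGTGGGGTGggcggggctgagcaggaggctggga

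The summed levels of markers of several other cell types were also higher in the long bone libraries, beside 29.9% of all genes called lower in vertebral cells. Of 8 neutrophil genes tested, 8 were lower in vertebral cells (6 without long bone replicate 4), with summed levels of 47.5 to 110.2 against 239.6 to 882 FPKM; S100a8 had 37.1, 37.2, 24.4 and 17.6 against 239, 206, 82.5 and 280.3. Of 6 macrophage and osteoclast genes tested 6 were lower, with sums of 34.6 to 48.3 against 107 to 171.001 FPKM, and Acp5, the acid phosphatase of osteoclasts, had 1.16, 1.73, 1.03 and 1.51 against 23.6, 35.4, 15.1 and 17.0. Skeletal muscle genes summed to 33.9 to 49.3 against 379 to 856 FPKM and 5 of 6 tested were lower; Tnni2, a fast troponin, had a difference of -3.81 (SE 0.26, adjusted p = 1.7e-06). Of 5 neural and glial genes tested 4 were lower, Mbp, a myelin protein gene, at 2.34, 0.540, 2.74 and 0.145 against 8.56, 37.7, 4.91 and 15.6 FPKM. Of 3 endothelial genes tested 1 was lower, or 2 without long bone replicate 1, with sums of 3.97 to 6.40 against 10.4 to 16.2 FPKM. Of 6 megakaryocyte genes tested 5 were lower (6.04 to 9.27 against 19.1 to 144 FPKM), of 4 lymphoid genes 2 (14.5 to 23.7 against 18.9 to 36.8) and of 2 notochord genes 1 (87.6 to 95.1 against 293 to 713). The lymphoid count was 1 without vertebral replicate 1 or 3 and with median-ratio scaling or quantile normalization, and the sums of this list overlapped. Of the genes counted here, 2 macrophage and osteoclast genes and 1 each of the megakaryocyte, endothelial, muscle, neural and lymphoid genes had passed the filter only through the long bone libraries. In all 4 vertebral libraries 2 of 13 endothelial, 2 of 16 muscle and 2 of 9 notochord genes were listed at 0, and in all 4 long bone libraries 0, 0 and 3. Only 2 of the 9 notochord genes were tested, and both were called higher in vertebral GFP+ cells of the EMB+ sort. Whether these other cell types have a part in the differences of bone, stroma or cell cycle genes was not tested.

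Cell cycle genes were lower in vertebral cells almost without exception. Birc5 (survivin) had 6.28, 7.41, 5.89 and 7.58 FPKM in the vertebral and 164.48, 263, 107 and 184 in the long bone libraries, and Ube2c, a mitotic ubiquitin-conjugating enzyme, 5.10, 7.06, 4.27 and 7.64 against 201, 332, 135 and 193. Their differences were -4.47 (SE 0.24, adjusted p = 3.5e-07) and -4.90 (SE 0.26, adjusted p = 3.5e-07). The DNA precursor enzymes Tk1 (thymidine kinase), at 3.00, 1.67, 2.09 and 2.69 against 49.7, 84.5, 36.8 and 50.5 FPKM, and Rrm2 (ribonucleotide reductase), at 8.30, 10.9, 12.3 and 8.57 against 261, 474, 191.59 and 116, were lower, with differences of -4.02 and -4.402. Of 24 mitosis genes tested 24 were lower (median -3.10), and of 23 replication genes 22 (median -2.59), beside 29.9% lower over all genes. Of the 2 lists, 6 and 3 genes had passed only through the long bone libraries. Within the long bone group replicate 2 was the highest library for each of these 4 genes, and it was also the highest for Slc4a1, Alas2 and Klf1, while Hba-a1 was highest in replicate 4. The red cell genes move with this group of genes across the 2 sites, and their part in it was not tested.

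Other housekeeping and stress groups moved less. Of 22 immediate early genes, induced within minutes of stimulation or cell isolation, 7 were higher and 1 lower (median 0.34). Over all genes 5.10% were higher and 29.9% lower. The count of higher genes was 14 without long bone replicate 4, but 4 without vertebral replicate 2, 3 or 4 or long bone replicate 1 or 2. Dusp1, a phosphatase of the MAP kinases, had 800.2, 712, 735 and 689 FPKM against 257, 235, 292 and 247 (1.51, SE 0.16, adjusted p = 3.4e-05) and Atf3, a stress factor, 297, 341, 383 and 367 against 139, 111, 153 and 150.5 (1.32). Of 80 cytosolic ribosomal protein genes tested 1 passed, with a median of -0.21, or 0.07 without long bone replicate 4, in which short transcripts were high. Of 77 respiratory chain genes 48 were lower (median -0.74), beside 29.9% lower and 5.10% higher over all genes. The count was 28 without vertebral replicate 2. With median-ratio scaling it was 21, beside 16.6% lower over all genes.

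**Figure D4:**
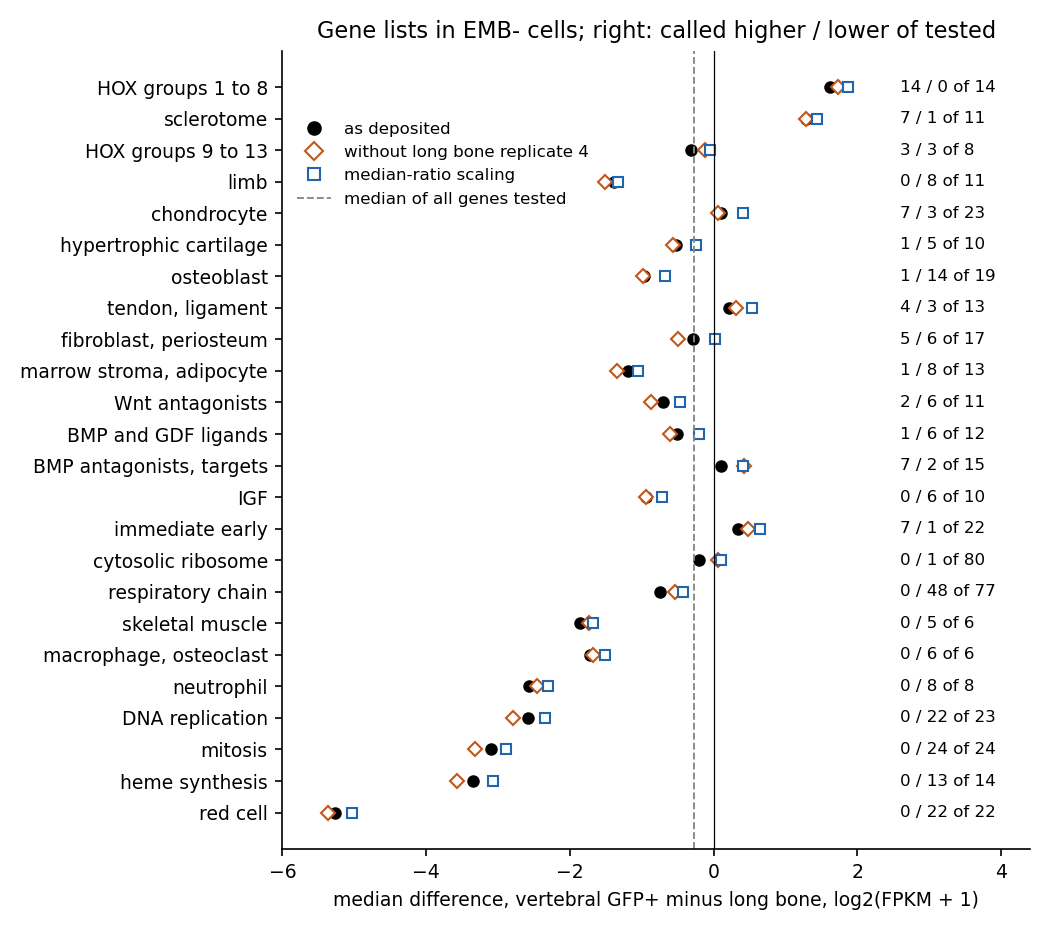
Median difference between vertebral GFP+ and long bone EMB- cells over the tested members of 24 gene lists (horizontal axis, log2(FPKM + 1) scale), as deposited, without long bone replicate 4 and with median-ratio scaling, with the genes called higher and lower at the right. The red cell median is -5.26 and that of HOX groups 1 to 8 is 1.62, while the dashed line marks the median of all genes at -0.27.

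The same site comparison in EMB+ cells, which shares no library with the one above, called 2836 genes (26.0%), 1219 (11.2%) higher and 1617 (14.8%) lower in vertebral GFP+ cells. Both comparisons called 246 genes higher and 848 lower, and 321 were called in opposite directions. Across the 10890 genes the differences correlated with a Pearson r of 0.301 and a Spearman rho of 0.313, a description over genes that are not independent. Several position genes had site differences near those in EMB- cells: in EMB+ cells Pax1 was higher by 4.89, Hoxb7 by 4.20 and Hoxc8 by 2.31, while Pitx1, Shox2 and Hoxa10 were at -5.03, -5.41 and -1.92. For these 6 genes the difference between the 2 comparisons did not pass the test. A missed threshold does not show that they were equal. For other position genes it did pass, in 1 of 14 HOX genes of groups 1 to 8, 5 of 11 sclerotome and 4 of 11 limb genes. Over all genes tested it passed in 26.7%. Foxf2 was higher by 4.19 in EMB- and 1.73 in EMB+ cells, a difference of 2.46 (SE 0.24, adjusted p = 4.4e-07). Pax9 differed by 1.07, Hoxa3 by 1.02, Meox1 by 1.10 and Irx3 by 1.04, while Uncx, Nkx6-1, Prrx2 and Irx5 differed by -1.39, -1.44, -1.33 and -1.47. Tbx2, a limb T-box factor, was at -1.30 in EMB- and -2.52 in EMB+ cells and differed by 1.23.

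The difference between the EMB- and EMB+ site comparisons passed the test in 2910 genes (26.7%), 507 (4.66%) of them higher and 2403 (22.1%) lower in EMB- cells. Red cell genes made part of the lower side: all 22 tested were called, with a median EMB+ site difference of -0.08. Klf1 differed by -5.91 (SE 0.36, adjusted p = 2.4e-09), Ctse by -5.95 (SE 0.49, adjusted p = 5.3e-08), Slc4a1 by -5.87 (SE 0.62, adjusted p = 1.0e-06), Hba-a1 by -5.82 (SE 0.53, adjusted p = 1.6e-07) and Tspan33 by -5.78 (SE 0.37, adjusted p = 4.3e-09). Cell cycle genes went opposite ways. In EMB+ cells 20 of the 24 mitosis genes were higher in vertebral cells (median 0.64), and the difference between the comparisons was called in all 24. Ube2c, for example, averaged 23.1 ± 1.68 FPKM in vertebral GFP+ and 15.5 ± 3.18 in long bone cells of the EMB+ sort, and differed by -5.46 (SE 0.31, adjusted p = 1.2e-09). Birc5, Tk1 and Rrm2 differed by -4.96, -4.90 and -5.01.

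On the other side stood genes whose signed site difference, vertebral minus long bone, was higher in EMB- than in EMB+ cells. Msmp (chromosome 4, 43583216 to 43584494) had 18.9, 34.7, 54.3 and 32.4 FPKM in the GFP+ and 2.35, 1.06, 1.69 and 4.41 in the long bone libraries sorted as EMB-, but averaged 12.008 ± 3.23 and 932 ± 337 in the EMB+ groups, so that its site difference of 3.42 turned to -6.10, a difference of 9.51 (SE 0.48, adjusted p = 4.2e-10). 1520401A03Rik averaged 6.04 ± 1.66 FPKM in vertebral GFP+ EMB+ cells and differed by 6.33 (SE 0.25, adjusted p = 1.2e-11). Padi2 and Sbsn, at 2.87 ± 0.593 and 1.49 ± 0.355 FPKM in vertebral GFP+ EMB+ cells, differed by 3.66 (SE 0.21, adjusted p = 1.2e-09) and 3.597 (SE 0.36, adjusted p = 6.0e-07). Long bone EMB+ cells averaged 1.47 ± 0.290 and 1.34 ± 0.450 FPKM. Padi2 was thus still called higher, by 0.64 (adjusted p = 0.0070), and Sbsn was not called (adjusted p = 0.74), in vertebral GFP+ EMB+ cells. Eln, at 22.3 ± 6.47 FPKM there and 27.7 ± 6.58 in long bone EMB+ cells, differed by 3.15 (SE 0.28, adjusted p = 1.6e-07), and Chrdl2 by 3.03 (SE 0.27, adjusted p = 1.5e-07).

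For 4 further genes the 2 comparisons had opposite signs. Abi3bp, an extracellular matrix protein gene, was at 97.8, 92.2, 107 and 93.2 against 31.1, 32.9, 41.8 and 36.0 FPKM in EMB- cells, a difference of 1.44, and at -2.30 in EMB+ cells; the difference was 3.75 (SE 0.24, adjusted p = 4.3e-09). Gas1 was higher by 1.16 in EMB- and at -1.82 in EMB+ cells (2.98, SE 0.23, adjusted p = 3.4e-08), and Grem1 by 2.01 and -1.14 (3.14, SE 0.40, adjusted p = 9.2e-06). Dlx5 was lower in vertebral EMB- cells (-1.01) and higher in vertebral EMB+ cells (0.80), a difference of -1.81 (SE 0.18, adjusted p = 4.3e-07). Cilp, a cartilage intermediate layer protein gene, was at 191.02, 228, 171.371 and 169.6 against 103, 128, 186.35 and 108 FPKM. It did not pass the EMB- test as deposited (adjusted p = 0.061) but did without long bone replicate 3 (adjusted p = 0.0095) or 4 (0.044), with median-ratio scaling (0.014) and with quantile normalization (0.015). In EMB+ cells it was lower, with a difference of -3.51, and the difference was 4.07 (SE 0.30, adjusted p = 2.0e-08). Cytl1, Matn1 and Thbs4 kept the sign of their site difference while its size differed, by 2.14, -1.44 and 2.49. Bmp7 was at -0.02 in EMB+ cells and differed by -2.08.

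**Figure D5:**
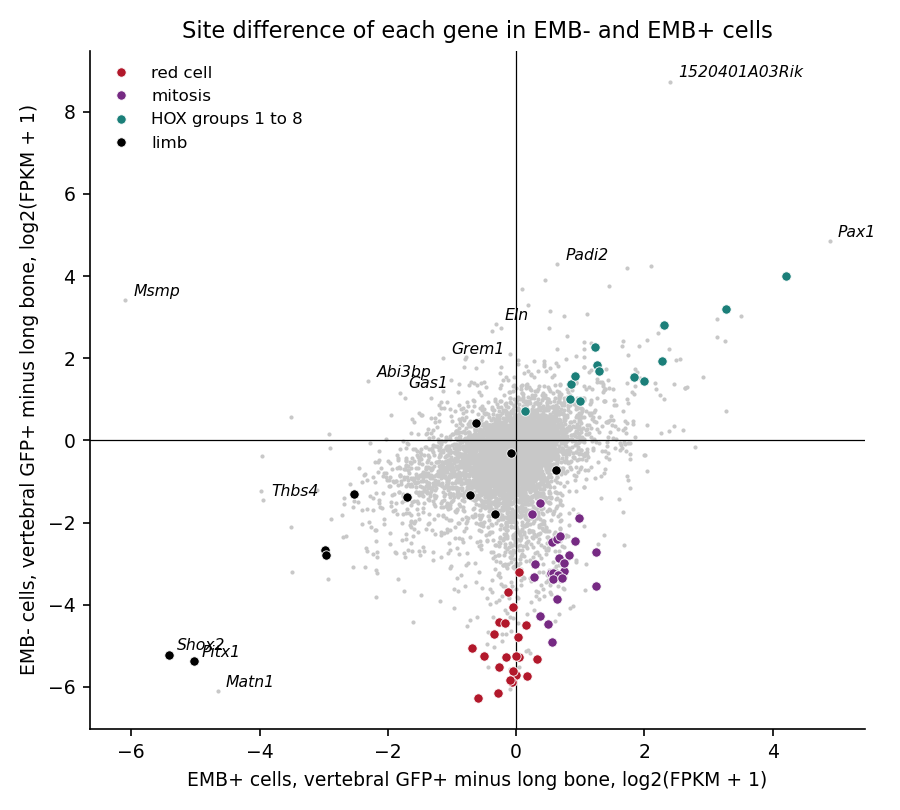
Site difference of each of the 10890 genes in EMB- cells (vertical axis) against that in EMB+ cells (horizontal axis), both vertebral GFP+ minus long bone on the log2(FPKM + 1) scale. Pax1, Pitx1 and Shox2 lie near the diagonal, the tested HOX genes of groups 1 to 8 above 0 on both axes, red cell genes near 0 on the horizontal axis and well below 0 on the vertical, and Msmp at -6.10 and 3.42.

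The vertebral GFP- EMB- libraries, from the same site and zic1-cre negative, allow levels to be read beside both groups. Against the same long bone libraries they gave 3616 called genes (33.2%), 607 (5.57%) higher and 3009 (27.6%) lower; the comparisons share those libraries, so only levels are set side by side. Pax1 averaged 130.4 ± 9.68 FPKM in GFP+, 149.9 ± 16.5 in GFP- and 3.66 ± 1.26 in long bone cells. Hoxb7 averaged 16.2 ± 3.00, 14.4 ± 3.41 and 0.0708 ± 0.113 FPKM, Hoxa10 13.1 ± 2.27, 13.1 ± 1.39 and 45.3 ± 7.55, and Pitx1 0.00849 ± 0.0170, 0.0267 ± 0.0339 and 43.7 ± 19.5. Cytl1, at 2721 ± 582, 2669.6 ± 103 and 161.56 ± 107 FPKM, and Matn1, at 4.93 ± 0.986, 5.23 ± 2.09 and 405 ± 59.5, also had like levels in both vertebral groups. These 6 genes did not pass the test between GFP+ and GFP- EMB- cells, in which 1395 genes (12.8%) were called, 437 (4.01%) higher and 958 (8.80%) lower in GFP+ cells.

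Other position genes did differ between the vertebral groups. Foxf2 averaged 19.7 ± 2.35 FPKM in GFP+ and 33.2 ± 4.74 in GFP- cells, a difference of -0.72 (adjusted p = 0.00033), and Nkx6-1 4.78 ± 0.669 and 0.740 ± 0.17005, a difference of 1.73 (adjusted p = 3.7e-07). Hoxb9, Prrx1 and Tbx2 were higher in GFP+ cells, with differences of 0.64 (adjusted p = 0.011), 0.73 (adjusted p = 0.0051) and 0.93 (adjusted p = 0.0026). In all, 3 of 14 HOX genes of groups 1 to 8, 1 of 8 of groups 9 to 13, 3 of 11 limb and 2 of 11 sclerotome genes were higher and 1 sclerotome gene was lower in GFP+ cells. Over all genes 4.01% were higher and 8.80% lower in GFP+ cells. With replicate numbers as a block Foxd1 (adjusted p = 0.0089), Foxc1 (0.035), Hoxd8 (0.043) and Hoxd9 (0.042) were also called.

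Genes of bone, stroma and red cells differed between the vertebral groups as well as between the sites. Cxcl12 averaged 25.8 ± 2.88 FPKM in GFP+, 9.94 ± 4.53 in GFP- and 153 ± 22.0 in long bone cells, and the GFP+ minus GFP- difference was 1.37 (adjusted p = 0.0015). Dmp1 averaged 59.8 ± 10.4, 19.8 ± 5.75 and 295 ± 132 FPKM, with a difference of 1.58 (adjusted p = 7.8e-05). Bglap averaged 486 ± 112, 142 ± 46.7 and 1931 ± 1101 FPKM, with a difference of 1.79 (adjusted p = 0.0036) whose call did not hold once replicate numbers entered as a block (adjusted p = 0.077). Of the 19 osteoblast genes tested, 12 were higher and 1 lower in GFP+ than in GFP- cells, beside 4.01% higher and 8.80% lower over all genes. Red cell genes had the reverse order among the vertebral groups. Hba-a1 averaged 201 ± 88.4 FPKM in GFP+, 3284 ± 635 in GFP- and 11431 ± 3802 in long bone cells, and all 22 red cell and 24 mitosis genes tested were lower in GFP+ than in GFP- cells.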

How the data were processed

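The deposited values are FPKM of protein-coding genes, 1 column per library, per the file headers. Cufflinks 2.1.1, STAR 2.5.2, bcl2fastq 2.19 and GRCm38 are named in the submitters' processing notes. Per the labels' protocols, cDNA was made with SMART-Seq v4 and libraries with Nextera XT, which do not mark strand, so reads of overlapping genes are not told apart. Of 22053 entries, 102 repeats and 3 genes with failed estimates (16 values) were left out, and 528 values marked as low data in 22 genes were kept. Positions in the file were taken as 0-based starts and 1 was added.

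log2(FPKM + 1) was tested with limma 3.58.1 in R 4.3.3 (trend, robust moderation, two-sided, Benjamini-Hochberg at 0.05 over 10890 genes) on the 8 libraries, the site-by-EMB difference on 16. Such differences are too small for genes of low level. Residual degrees of freedom were 6 and the median prior ones 5.04. The test was checked on simulated data. A p-value here reflects only how these libraries vary, which may be technical.

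Named genes were the sort markers; per direction the 12 largest called differences without overlap and with a mean of 5 FPKM or more, predicted genes left out; position genes with a group mean of 1 or more; of the other lists up to 4 called genes with the smallest adjusted p and any with a mean of 100 or more; and 5 per direction for the difference between EMB- and EMB+ cells. Outside the rule are 1520401A03Rik, Epyc and the EMB- against EMB+ values of 1520401A03Rik, Eln, Thbs4, Chrdl2, Cytl1, Matn1, Bmp7 and the position genes, chosen after their values were seen. Genes and lists were chosen with earlier results of these data known. Same-numbered GFP+ and GFP- EMB- libraries deviated together (correlations 0.135 to 0.313), the numbers coming from the titles. Blocked values are given for only some of the genes whose call they change. Alternatives were pseudocounts of 0.1 and 5, no or a stricter filter, 3 rescalings, a fit over 6 groups, library weights, the replicate block and each library left out. The EMB+ and GFP- site comparisons and the split by transcript length (GENCODE M21) were added after seeing the data.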

Additional observations from a re-analysis of the deposited data

Results flagged for a closer look

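The named genes gave 254 sets of 4 libraries. Sets with no range, among them Zic1, Zic4 and Uncx in long bone EMB- cells, were passed over, so fewer than 254 were examined. In 15 sets the gap of 1 library to the nearest other took up nearly the whole range, past Dixon's 95% critical value. Chance flags about 1 in 20 of the sets examined. Long bone replicate 4 was the distant library for Cd200 (563 FPKM, highest), Hoxa9 (16.1, highest), Sbsn (8.08, highest) and Sparc (33412, highest). Long bone replicate 1 was the highest for Mepe (126 FPKM), Pecam1 (0.796) and Hoxb6 (0.0560), replicate 2 the lowest for Nkx6-1 (4.31) and replicate 3 the highest for Ibsp (1023). Among vertebral libraries, replicate 4 was the highest for Foxd1 (47.0 FPKM), replicate 2 the lowest for 1520401A03Rik (412.9) and Foxc1 (39.0), replicate 1 the lowest for Bglap2 (128.7), and replicate 3 the highest for Pitx1 (0.0340) and Thy1 (0.0563), each listed at 0 in the other 3.

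The site difference in EMB- cells differed from that in EMB+ cells by a test of the difference itself for further named genes. As signed values, vertebral minus long bone, it was higher in EMB- cells for Msmp (9.51), 1520401A03Rik (6.33), Cilp (4.07), Abi3bp (3.75), Padi2 (3.66), Sbsn (3.597), Eln (3.15), Grem1 (3.14), Chrdl2 (3.03), Gas1 (2.98), Thbs4 (2.49), Foxf2 (2.46), Cytl1 (2.14), Tbx2 (1.23), Meox1 (1.10), Pax9 (1.07), Irx3 (1.04) and Hoxa3 (1.02). It was lower in EMB- cells for Ctse (-5.95), Klf1 (-5.91), Slc4a1 (-5.87), Hba-a1 (-5.82), Tspan33 (-5.78), Ube2c (-5.46), Rrm2 (-5.01), Birc5 (-4.96), Tk1 (-4.90), Bmp7 (-2.08), Dlx5 (-1.81), Irx5 (-1.47), Matn1 (-1.44), Nkx6-1 (-1.44), Uncx (-1.39) and Prrx2 (-1.33).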

How the results depend on the processing

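The count of genes called (3814) moved to 6590 with estimated library weights, in which long bone replicate 4 weighed 0.119 and replicate 1 weighed 6.32. The count of higher genes (555) moved to 1914 with quantile normalization, 1081 with median-ratio scaling and 1185 with library weights, and that of lower genes (3259) to 1620, 1807 and 5405. With each library left out in turn the calls ranged from 2951 to 5209, with 428 to 835 higher and 2512 to 4374 lower, the highest values being those without long bone replicate 4. The difference between EMB- and EMB+ site comparisons (2910 calls) gave 4647 with library weights and 2497 to 4023 without single libraries. For GFP+ against GFP- EMB- cells, 56 named genes were called, 51 to 59 without single libraries. The cause of these shifts was not tested.

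With the replicate number as a block the main comparison called 4125 genes (601 higher, 3524 lower), the difference between the site comparisons 2558 and the GFP comparison 67 named genes. The titles number all 4 long bone EMB+ libraries 1. In the blocked fit of the difference between the site comparisons, only vertebral libraries were therefore blocked by number. The long bone libraries shared 1 level there. Same-numbered vertebral GFP+ and long bone libraries had correlations of deviations of 0.147, 0.214, -0.04 and 0.411. The best match carried the same number for replicates 2 and 4 and another number for replicates 1 and 3. These values do not settle whether the numbers pair the libraries. Of 106 named genes called, 101 kept call and direction under every alternative run; Cd200, Col1a1, Col2a1, Hoxd8 and Hoxd9 did not, and Col1a1 reversed to 0.0501 with quantile normalization. Another 7 named genes that were not called as deposited were called under some alternative. Among them Sparc, Prrx2 and Hoxc10 were called in the main comparison with the replicate block (adjusted p = 0.039, 0.017 and 0.04996).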
